A study of Homo sapiens with 6 samples.

Results

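The HOX gene clusters encode miRNAs between and within their homeobox genes, and 8 mature arms of these miRNAs were examined in wild type (WT) and ΔTUT4/7 HEK 293T cells. The arms are hsa-miR-10a-5p, hsa-miR-10a-3p, hsa-miR-10b-5p, hsa-miR-10b-3p, hsa-miR-196a-5p, hsa-miR-196a-1-3p, hsa-miR-196b-5p and hsa-miR-615-3p (hsa, human, is left out from here on), chosen by name from the 1000 mature miRNAs of the count table. The 2 strains were a TENT3A/B (TUT4/7) double knockout of HEK 293T cells and the WT cells, without further treatment, with 3 biological replicate libraries each. HEK 293T is a transformed line from human embryonic kidney, and the knockout strain had been made and published earlier, so whatever else separates it from WT cells enters every value below. Total RNA was made into miRNA libraries, which held between 4338558 and 7967606 counts.

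HOX genes encode transcription factors that set position along the body axis, and the order of the genes in a cluster follows the order of their expression. The miR-10 and miR-196 hairpins are conserved within these clusters, and several HOX mRNAs are known targets of them, among them HOXB8 for miR-196a. A hairpin precursor is cut by DICER into a 5p and a 3p arm, of which usually one is loaded and kept. TUT4 and TUT7 add uridines to the 3′ ends of precursors, which can mark them for decay or, in so-called group II precursors with a short 3′ overhang, prepare them for DICER.

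The arms come from 6 hairpins in the 4 HOX clusters of hg38. In HOXB, MIR10A lies on chromosome 17 from 48579838 to 48579947, in an intron of HOXB3, and MIR196A1 lies from 48632490 to 48632559, in an intron of HOXB7. Both are on the minus strand, opposite the antisense genes HOXB-AS3 and HOXB-AS4. MIR10A also lies in an exon of the 1 annotated transcript of ENSG00000257178, a long non-coding RNA gene on the same strand. In HOXC, MIR196A2 lies on chromosome 12 from 53991738 to 53991847, in an intron of HOXC6, and MIR615 from 54033950 to 54034045, in introns of HOXC5 and HOXC4. Both are on the plus strand. In HOXD, MIR10B lies on the plus strand of chromosome 2 from 176150303 to 176150412, in an intron of HOXD3. In HOXA, MIR196B lies on the minus strand of chromosome 7 from 27169480 to 27169563, inside HOXA9, where 1 of 8 annotated HOXA9 transcripts has it in an exon. On the opposite strand, 2 of 3 annotated transcripts of HOXA10-AS have an exon over it.

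**Figure D1:**
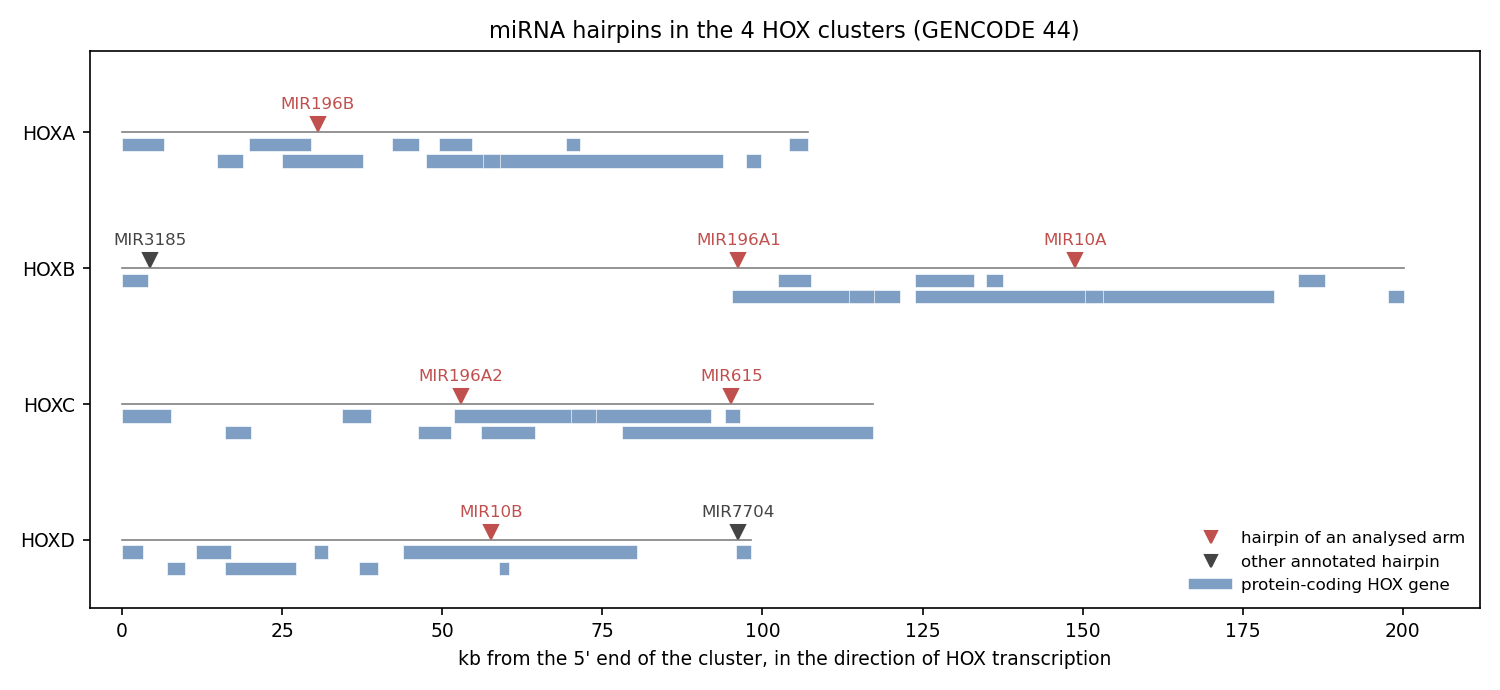
Hairpins (triangles) and protein-coding HOX genes (bars) in the 4 HOX clusters, by distance in kb from the 5′ end of each cluster in the direction of HOX transcription. HOXA holds 1 of the annotated hairpins, HOXB 3, HOXC 2 and HOXD 2, and the 6 red triangles mark the hairpins of the arms described here.

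The mature sequences, from RefSeq (GRCh38.p14), show which arms share a seed and which can be told apart. Of the 8 arms, 7 had an entry, and miR-10b-5p is named only. Its seed and first bases were therefore not compared with those of miR-10a-5p or any other arm. Capitals mark the seed, bases 2 to 8.
miR-10a-5p: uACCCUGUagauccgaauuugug
miR-10a-3p: cAAAUUCGuaucuaggggaaua
miR-10b-3p: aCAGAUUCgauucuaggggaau
miR-196a-5p: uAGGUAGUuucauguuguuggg
miR-196b-5p: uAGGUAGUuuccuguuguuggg
miR-196a-1-3p: cAACAACAuuaaaccacccga
miR-615-3p: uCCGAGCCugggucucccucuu

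Both miR-196 5p arms carry the seed AGGUAGU and differ at 1 of 22 positions, A12C, counted from the 5′ end of miR-196a-5p. No other miRNA of the count table for which a sequence was available had this seed. The same letters stand at positions 3 to 9 of let-7a-5p, 1 base farther from the 5′ end, and are printed here in capitals because let-7 was the family that took a larger share of the counts in ΔTUT4/7 cells.
let-7a-5p: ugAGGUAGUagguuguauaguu

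The 3p arms of miR-10a and miR-10b have different seeds. The authors trimmed the reads to 18 nt. None of the 7 arms shares its first 18 nt with another miRNA of the table for which a sequence was available. How many mismatches the alignment allowed was not given in the sources used here. In hg38 the first 18 nt of miR-196a-5p occur at 4 places, namely in MIR196A1, in MIR196A2 and at places on chromosomes 2 and 11 outside RefSeq hairpins. Those of miR-196b-5p occur in MIR196B and once on chromosome 1, and those of the other 5 arms once each.

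The 2 hairpins that give miR-196a-5p can be told apart only by their 3p arms, named miR-196a-1-3p and, for MIR196A2, miR-196a-3p. In the hairpins below the capitals mark both arms.
MIR196A1: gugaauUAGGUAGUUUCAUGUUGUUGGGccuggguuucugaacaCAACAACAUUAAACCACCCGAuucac
MIR196A2: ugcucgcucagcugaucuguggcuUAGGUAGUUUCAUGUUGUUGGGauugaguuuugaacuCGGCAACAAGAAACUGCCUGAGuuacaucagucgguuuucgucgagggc

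In the minimum free energy folds, the annotated 3p arm extended past the 5p arm by 1 nt in MIR196A1 and MIR196B and by 2 nt in MIR10A, MIR196A2 and MIR615. MIR10B was left out, since its 5p arm had no sequence entry. The overhang depends on the annotated arm ends, and precursor ends were not measured. None of the 6 hairpins is in the list of group II hairpins that the study used.

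miR-196a-5p and miR-196a-1-3p fell in ΔTUT4/7 cells, and the miR-10b arms fell by less than 2-fold. The arms of miR-10a, miR-196b-5p and miR-615-3p were not called in either direction. Of the 8 arms, 2 were called lower, miR-196a-1-3p and miR-196a-5p, and 0 higher. A call needed a change of at least 2-fold with an adjusted p under 0.05 in edgeR's quasi-likelihood test. Of all 826 tested miRNAs, 13.6% were called lower, 16.5% higher and 30.0% in either direction. A count of 2 called among 8 arms is close to the 30.0% called in either direction. With so few arms, the 2 called lower are not read as a difference from 13.6%. At an adjusted p under 0.05 without a limit on size, 4 of the 8 were lower, against 21.9% of the tested miRNAs. None was higher, against 23.2% of the tested miRNAs. The arms with a positive log2 fold change, miR-10a-3p (0.02) and miR-196b-5p (0.08), had an unadjusted p of 0.864 and 0.625 in the edgeR test. The CPM (counts scaled by the library total to 1000000) of the 4 lower arms lay below WT in all libraries. This separation, with ΔTUT4/7 below, was seen for 29.5% of the tested miRNAs. The median log2 fold change was -0.33 for the 8 arms and 0.013 for the tested miRNAs.

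**Figure D2:**
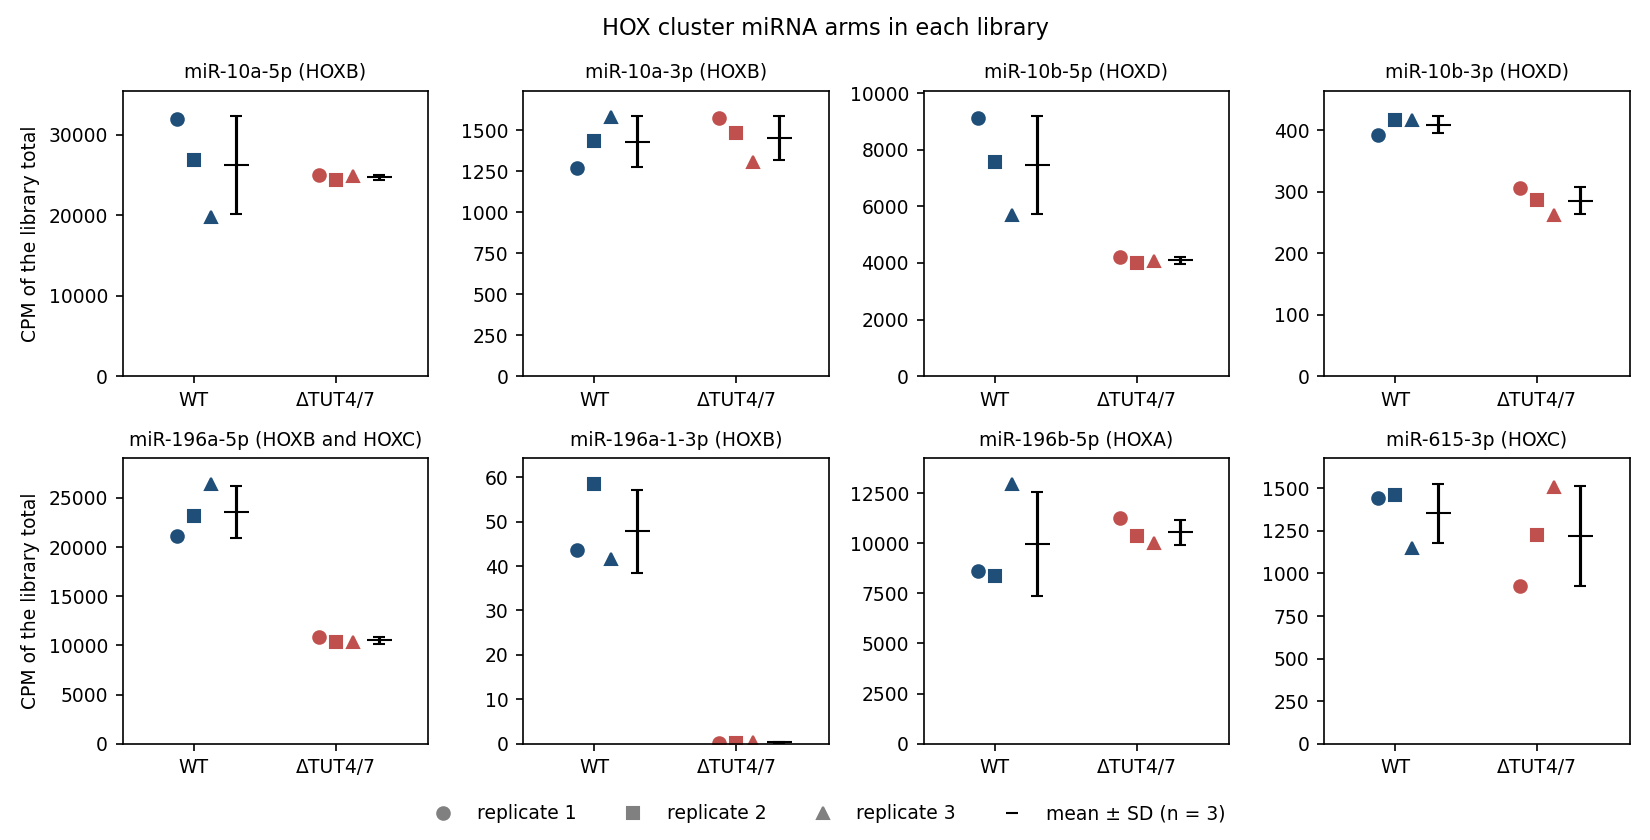
CPM of each of the 8 arms in the 3 WT (blue) and 3 ΔTUT4/7 (red) libraries, with the mean ± SD to the right of the points; each vertical axis starts at 0. Only miR-196a-5p, miR-196a-1-3p, miR-10b-5p and miR-10b-3p have all ΔTUT4/7 points below all WT points.

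The largest change was that of miR-196a-1-3p, the arm that marks the HOXB hairpin. It had 192, 466 and 180 counts in WT replicates 1, 2 and 3, or 43.5, 58.5 and 41.5 CPM. In ΔTUT4/7 replicates 1, 2 and 3 it had 1, 1 and 2 counts, or 0.197, 0.208 and 0.427 CPM. The strains were therefore far apart, and the arm was close to the limit of detection in every ΔTUT4/7 library. The mean was 47.8 ± 9.28 CPM in WT and 0.277 ± 0.129 CPM in ΔTUT4/7 cells (SD, n = 3 each). The fitted log2 fold change was -7.33 (standard error, SE, of 0.37), with an adjusted p of 1.66e-08 in edgeR. As pooled rates, 838 counts in WT against 4 in ΔTUT4/7 cells gave a 183-fold decrease with a 95% interval of 71.1 to 672, which covers counting error only. Tested by limma-trend as log2(CPM + 1), it changed by -5.25, a scale that understates changes of values under 1 CPM.

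miR-196a-5p, which both hairpins give, fell about as far as the 2-fold limit. It had 21115, 23131 and 26416 CPM in WT replicates 1, 2 and 3, and 10896, 10294 and 10351 CPM in ΔTUT4/7 replicates 1, 2 and 3. The ΔTUT4/7 libraries were close to each other and lay below the lowest WT library. The means were 23554 ± 2676 and 10514 ± 332 CPM (SD, n = 3 each). On the log2 scale this was -1.16 (SE 0.12, adjusted p = 7.70e-06 in edgeR), or 2.24-fold lower. The mean fell by 13040 CPM, and how much of this fall belonged to either hairpin was not tested. As an alternative, libraries were scaled to let-7-free totals, which omit let-7 and miR-98, whose share of the counts was 19.2% to 19.7% in ΔTUT4/7 and 5.57% to 6.36% in WT libraries. The change of miR-196a-5p was then -0.94 (adjusted p = 4.86e-05 in edgeR) and under the 2-fold limit, so that 1 of the 8 arms was called lower, against 9.81% of the tested miRNAs. That scaling moved the median of all tested miRNAs up by 0.22 on the log2 scale.

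The 3p arm of the HOXC hairpin, miR-196a-3p, is not among the 8 arms and was rare. It had 10, 2 and 3 counts in WT replicates 1, 2 and 3, and 6, 9 and 7 counts in ΔTUT4/7 replicates 1, 2 and 3. The strains overlapped, and with a log2 fold change of 0.64 and a 95% interval of -0.87 to 2.16 no difference was detectable at this depth (edgeR adjusted p = 0.47). In WT libraries together, 838 counts marked the HOXB hairpin and 15 the HOXC hairpin, and in ΔTUT4/7 libraries 4 and 22. The 3p arms of different hairpins need not be kept to the same degree, so these counts do not divide the 5p arm between the hairpins.

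miR-196b-5p, from HOXA, has the same seed and had 8592, 8358 and 12954 CPM in WT replicates 1, 2 and 3. In ΔTUT4/7 replicates 1, 2 and 3 it had 11236, 10362 and 10031 CPM. All 3 ΔTUT4/7 values lay within the WT range, which was set by the high replicate 3. Its log2 fold change was 0.08, with a 95% interval of -0.27 to 0.43 (edgeR adjusted p = 0.712). It changed sign to -0.02 without WT replicate 1 and to -0.03 without WT replicate 2, and was 0.32 (edgeR adjusted p = 0.0131) without WT replicate 3.

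Its other arm, miR-196b-3p, which is not among the 8, had 38.3, 44.3 and 57.9 CPM in WT replicates 1, 2 and 3. In ΔTUT4/7 replicates 1, 2 and 3 it had 85.1, 87.3 and 74.6 CPM, above WT throughout. It changed by 0.82 on the log2 scale (SE 0.20, adjusted p = 0.00512 in edgeR), under the 2-fold limit. As a share of miR-196b-5p it made up 0.446%, 0.530% and 0.447% in WT replicates 1, 2 and 3, and 0.758%, 0.843% and 0.744% in ΔTUT4/7 replicates 1, 2 and 3. The difference between these 2 arms was not tested.

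The ratio of miR-196a-5p to miR-196b-5p does not use the library total. It was 2.46, 2.77 and 2.04 in WT replicates 1, 2 and 3, and 0.970, 0.993 and 1.03 in ΔTUT4/7 replicates 1, 2 and 3. The 2 paralogues were thus read about equally often in every ΔTUT4/7 library, and miR-196a-5p more often in every WT library. The log2 ratio fell from 1.26 ± 0.22 in WT to -0.00 ± 0.05 in ΔTUT4/7 cells (SD, n = 3 each), a difference of -1.27 (2-sided exact permutation test, p = 0.1, the smallest that 3 against 3 libraries allow, and adjusted p = 0.167 over the 5 ratios tested).

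Of the miR-10 arms, miR-10a-5p was the most abundant of all 8 and ranked 12 among the 1000 miRNAs by mean CPM. It had 31923, 26838 and 19810.5 CPM in WT replicates 1, 2 and 3, and 24976, 24351 and 24844 CPM in ΔTUT4/7 replicates 1, 2 and 3. The WT libraries spread by 1.61-fold and enclosed the ΔTUT4/7 libraries, which spread by 1.03-fold. The log2 fold change was -0.08 with a 95% interval of -0.41 to 0.24 (edgeR adjusted p = 0.682). Its sign was positive without WT replicate 1 (0.08) and with let-7-free totals (0.14), and without WT replicate 3 it was -0.25 (edgeR adjusted p = 0.0415).

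miR-10a-3p, the minor arm of this hairpin, had 1273, 1433 and 1583 CPM in WT and 1573, 1482 and 1308 CPM in ΔTUT4/7 replicates 1, 2 and 3, so the strains overlapped. The change in log2 was 0.02 with a 95% interval of -0.28 to 0.33 (edgeR adjusted p = 0.902). It was negative with RLE factors (-0.02), with DESeq2 (-0.02), without ΔTUT4/7 replicate 1 (-0.04) and without WT replicate 1 (-0.05).

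miR-10b-5p, the HOXD paralogue, had 9128, 7557 and 5690.1 CPM in WT replicates 1, 2 and 3. In ΔTUT4/7 replicates 1, 2 and 3 it had 4215, 3995 and 4060.05 CPM, below each WT library. The means were 7458 ± 1721 and 4090.0 ± 113 CPM (SD, n = 3 each). The change on the log2 scale was -0.87 (SE 0.16, adjusted p = 9.75e-04 in edgeR), that is 1.82-fold lower, and its 95% interval of -1.21 to -0.52 includes a 2-fold decrease. Without WT replicate 3, the lowest WT library, it was -1.03 (adjusted p = 3.82e-05 in edgeR) and called lower, as were 11.3% of the miRNAs tested without that library.

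miR-10b-3p had 393, 418 and 416 CPM in WT replicates 1, 2 and 3, and 306, 288 and 262 CPM in ΔTUT4/7 replicates 1, 2 and 3. The strains did not overlap, and unlike its 5p arm it varied little among WT libraries, by 1.06-fold against 1.60-fold. It changed by -0.52 on the log2 scale (SE 0.14, adjusted p = 0.0118 in edgeR). The adjusted p was 0.112 with let-7-free totals (-0.30), 0.0592 without ΔTUT4/7 replicate 2 (-0.52) and 0.0528 without ΔTUT4/7 replicate 3 (-0.46), all by the edgeR test.

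The miR-10 paralogues kept a nearly fixed ratio to each other within each strain, and the strains differed in it. There were 3.50, 3.55 and 3.48 counts of miR-10a-5p for each of miR-10b-5p in WT replicates 1, 2 and 3. In ΔTUT4/7 replicates 1, 2 and 3 there were 5.93, 6.10 and 6.12. The log2 ratio was 1.81 ± 0.02 in WT and 2.60 ± 0.03 in ΔTUT4/7 cells (SD, n = 3 each), a difference of 0.78 (2-sided exact permutation test, p = 0.1, the smallest possible, and adjusted p = 0.167 over the 5 ratios). Leaving out any 1 library moved this difference only between 0.78 and 0.80. In WT the 5p arms of the 2 hairpins therefore varied together, with replicate 1 the highest and replicate 3 the lowest for both. miR-10b-5p had no entry as a mature sequence, and how closely it matches miR-10a-5p was not compared. Whether reads of either 5p arm could be counted for the other was thus not checked, which limits what the ratio shows.

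**Figure D3:**
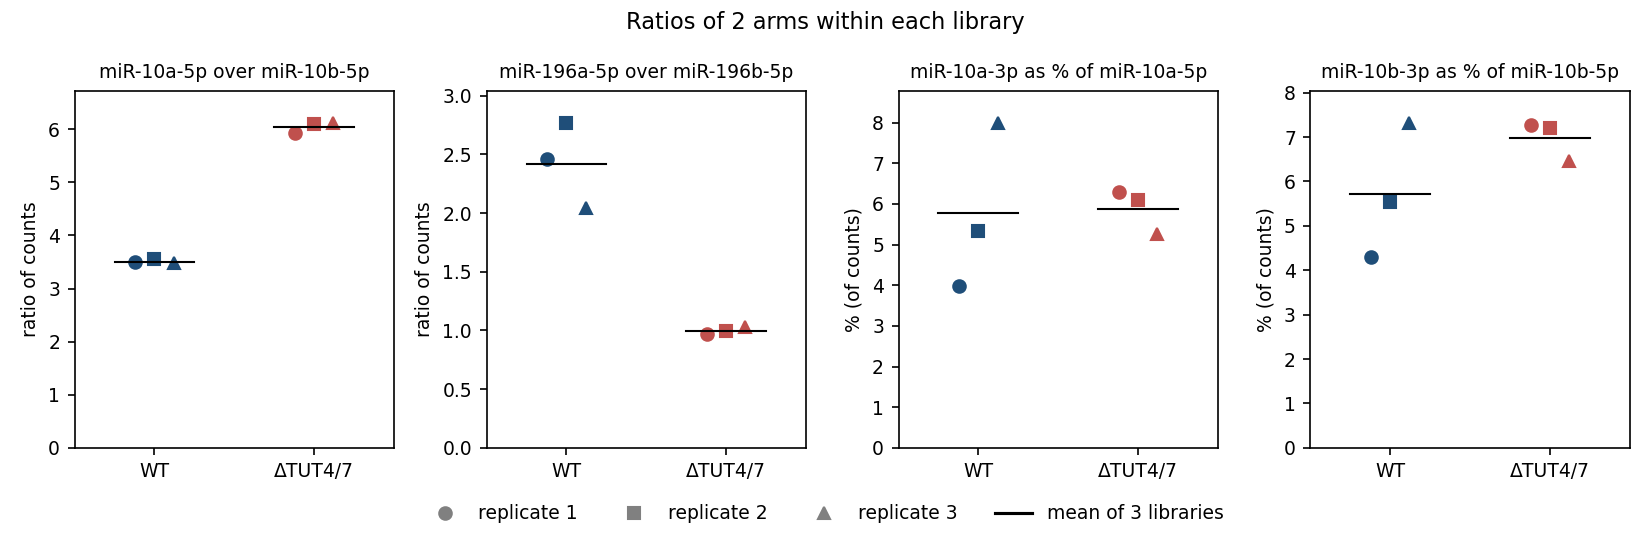
Ratios of 2 arms within each library, as a ratio of counts (left panels) and as a percent of counts (right panels), for 3 WT (blue) and 3 ΔTUT4/7 (red) libraries; lines are means and each axis starts at 0. The ratio of miR-10a-5p to miR-10b-5p is 3.48 to 3.55 in WT and 5.93 to 6.12 in ΔTUT4/7 libraries, while the 3p shares overlap between the strains.

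The balance of the arms within the miR-10 hairpins did not separate the strains. miR-10a-3p amounted to 3.99%, 5.34% and 7.99% of miR-10a-5p in WT replicates 1, 2 and 3, and to 6.30%, 6.09% and 5.27% in ΔTUT4/7 replicates 1, 2 and 3. For miR-10b the values were 4.31%, 5.53% and 7.32% in WT and 7.27%, 7.20% and 6.46% in ΔTUT4/7 cells. WT replicate 1 had the lowest and WT replicate 3 the highest share in both hairpins. The log2 differences between the strains were 0.08 for miR-10a (2-sided exact permutation test, p = 0.8) and 0.32 for miR-10b (p = 0.4, same exact test). The sign for miR-10a turned to -0.16 without WT replicate 1, and the difference for miR-10b was 0.13 without WT replicate 1 and 0.51 without WT replicate 3. The miR-196a ratio is not the arm balance of a single hairpin, since MIR196A1 and MIR196A2 both give miR-196a-5p and only MIR196A1 gives miR-196a-1-3p. miR-196a-1-3p amounted to 0.206%, 0.253% and 0.157% of miR-196a-5p in WT and to 0.00181%, 0.00202% and 0.00412% in ΔTUT4/7 replicates 1, 2 and 3. The log2 difference was -5.86 (p = 0.1 by the same exact test, the smallest possible, and adjusted p = 0.167 over the 5 ratios).

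miR-615-3p, from the HOXC5 intron, had 1442, 1463 and 1152 CPM in WT and 926, 1228 and 1509 CPM in ΔTUT4/7 replicates 1, 2 and 3. The strains overlapped, and here the ΔTUT4/7 libraries were the more variable, by 1.63-fold against 1.27-fold. Its log2 fold change was -0.15 with a 95% interval of -0.54 to 0.25 (edgeR adjusted p = 0.534). It was 0.02 without ΔTUT4/7 replicate 1 and 0.08 with let-7-free totals, so its sign depends on both. The 5p arm, miR-615-5p, had 1, 7 and 7 counts in WT and 2, 2 and 6 in ΔTUT4/7 replicates 1, 2 and 3. With no library above 7 counts it was left out of the test.

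**Figure D4:**
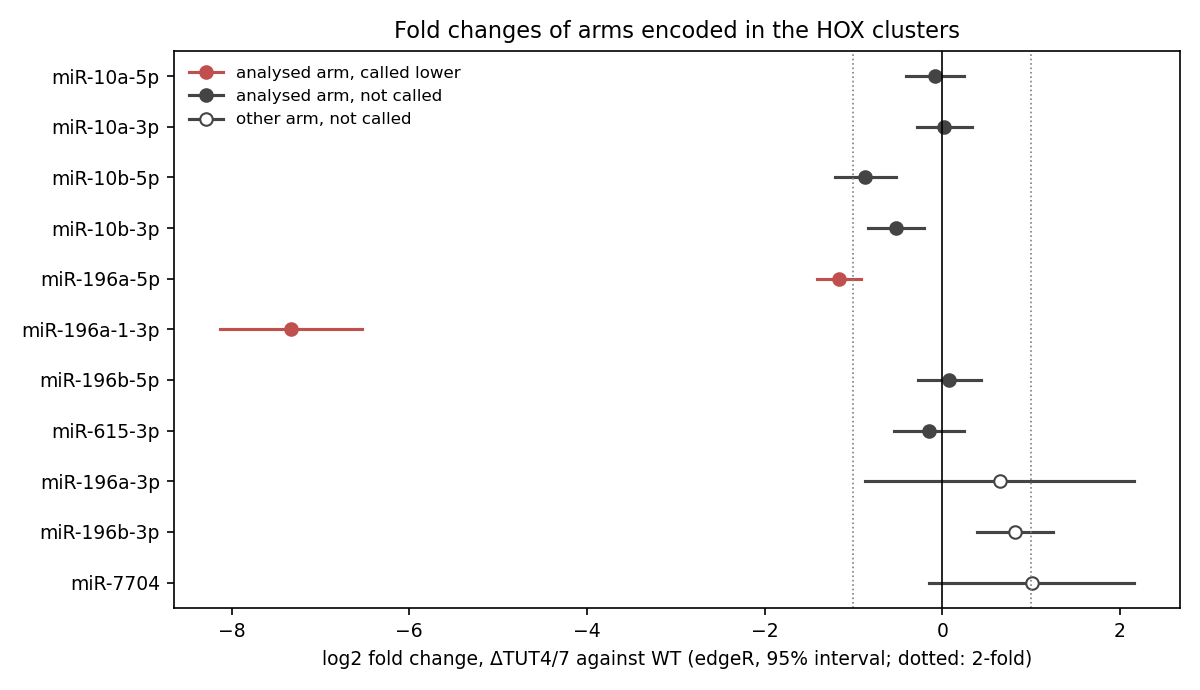
log2 fold change of ΔTUT4/7 against WT with its 95% interval (edgeR) for the 8 arms (filled) and 3 other tested arms from HOX clusters (open); dotted lines mark 2-fold. miR-196a-1-3p stands alone at -7.33, and miR-196a-5p is the only other arm called lower, a call lost (-0.94) with let-7-free totals.

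Compared by cluster, the HOXB arms miR-10a-5p, miR-10a-3p and miR-196a-1-3p together had 33239, 28329.6 and 21435 CPM in WT replicates 1, 2 and 3, and 26549, 25833 and 26153 CPM in ΔTUT4/7 replicates 1, 2 and 3. These sums are almost all miR-10a-5p and overlap between the strains, although the cluster also holds the arm that fell most. The HOXD arms summed to 9521, 7975 and 6106 CPM in WT and 4521, 4283 and 4322 CPM in ΔTUT4/7 replicates 1, 2 and 3, with no overlap. The single HOXA arm, miR-196b-5p, and the arm of HOXC alone, miR-615-3p, overlapped, as given above. miR-196a-5p, which hairpins in HOXB and HOXC both give, was kept out of the sums of these clusters. It did not overlap between the strains, so the overlap of HOXB and HOXC holds only without this arm. In all, the 8 arms took 6.81% to 7.39% of the counts in WT and 5.20% to 5.41% in ΔTUT4/7 libraries. The mean sum of the 8 arms differed by -17578 CPM in ΔTUT4/7 cells, miR-196a-5p alone by -13040 CPM and the HOXD arms by -3492 CPM. As the log2 of the summed CPM, the difference of all 8 arms was -0.41, and -0.19 with let-7-free totals.

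**Figure D5:**
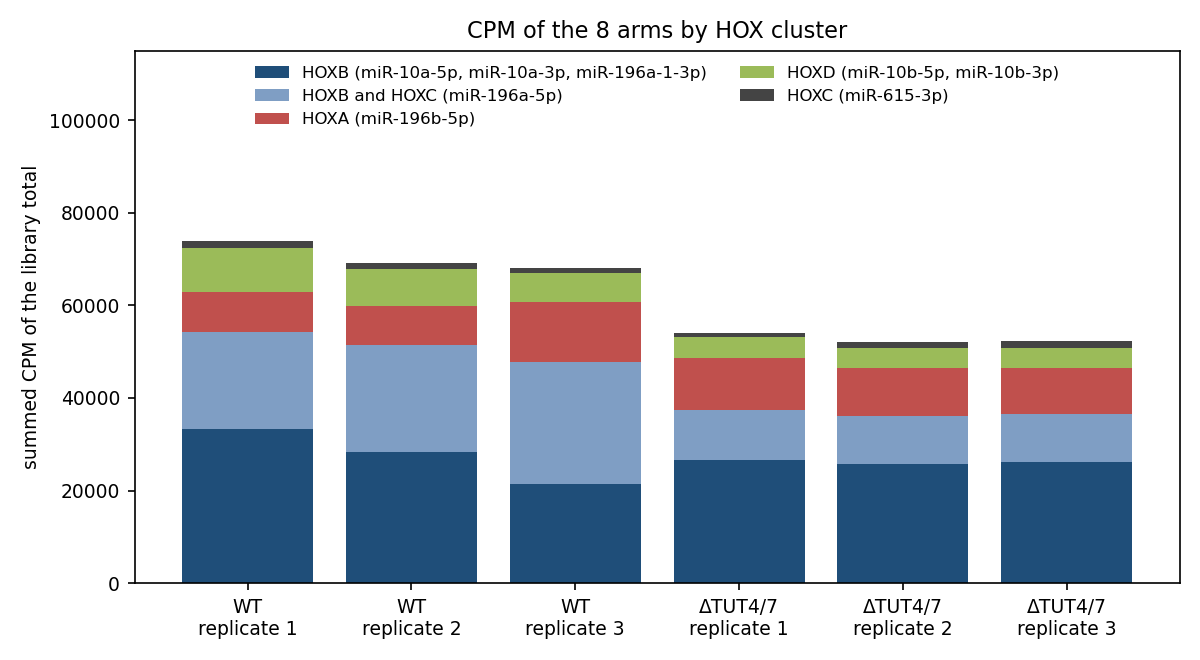
CPM of the 8 arms stacked by the HOX cluster of their hairpins in each library, on an axis from 0. The segment of miR-196a-5p shrinks from 21115 to 26416 CPM in WT to 10294 to 10896 CPM in ΔTUT4/7 libraries, and the total is 68064 to 73909 CPM in WT and 52000.5 to 54128 CPM in ΔTUT4/7 libraries, a log2 difference of -0.41 that is -0.19 with let-7-free totals.

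The order of the arms by CPM differed between the strains, although counts of different miRNAs also reflect how well each sequence enters a library. In WT cells miR-10a-5p and miR-196a-5p overlapped at the top, and miR-196b-5p and miR-10b-5p overlapped after them. In ΔTUT4/7 cells miR-10a-5p stood alone above miR-196b-5p and miR-196a-5p, which overlapped, and miR-10b-5p came after them with no overlap. miR-10a-3p and miR-615-3p overlapped in both strains, ahead of miR-10b-3p and, at rank 314 of all miRNAs, miR-196a-1-3p.

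Other arms encoded in the HOX clusters showed no call. Besides miR-196a-3p and miR-196b-3p, miR-7704 from the HOXD end had 9, 4 and 10 counts in WT and 10, 19 and 14 in ΔTUT4/7 replicates 1, 2 and 3 (log2 fold change 1.01, edgeR adjusted p = 0.134). Of the arms of miR-99, miR-100 and miR-125, which are grouped with miR-10 in one family, 4 of 9 were called lower and 0 higher, against 13.6% and 16.5% of all tested miRNAs, and their median log2 fold change was -0.90. Of the 19 arms of let-7 and miR-98, 14 were called higher and 0 lower, against the same shares of 16.5% and 13.6%, with a median of 2.63. Both medians are on the scale of the library totals, and let-7-free totals moved the median of all tested miRNAs up by 0.22.

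Among the 383 other tested miRNAs with a mean of at least 10 CPM, the profiles most like each arm were found by the root mean square distance of centred log2(CPM + 1) over the 6 libraries. Nearest to miR-196a-5p were miR-26b-5p (0.04) and miR-23b-3p (0.07), with log2 fold changes of -1.12 each. Nearest to miR-196a-1-3p were miR-34b-5p (0.27) and miR-34b-3p (0.37), which also had under 0.5 CPM in ΔTUT4/7 cells. For miR-10b-5p they were miR-450b-5p (0.07) and miR-30c-2-3p (0.10), and for miR-10b-3p miR-182-5p (0.05) and miR-454-3p (0.06). For miR-10a-5p they were miR-2277-5p and miR-502-3p, for miR-10a-3p miR-126-5p and miR-146a-5p, for miR-196b-5p miR-324-5p and miR-424-5p, and for miR-615-3p miR-744-5p and miR-320b.

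Counts of any 2 replicate libraries were farther apart than sampling allows (chi-square divided by its degrees of freedom, 13.3 to 54.9 for pairs of ΔTUT4/7 and 99.2 to 293 for pairs of WT libraries). WT replicate 3 was the farthest from the others, at 293 from replicate 1 and 284 from replicate 2, against 99.2 between replicates 1 and 2. The deleted genes themselves are not read by miRNA libraries, so they give no check of the labels. Of 19 markers of blood, muscle, liver, endothelium and pluripotent cells, 7 had a row in the count table, none of them for muscle or pluripotent cells. They summed to 3871 to 3979 CPM in ΔTUT4/7 and 2870 to 3722 CPM in WT libraries, nearly all of it miR-126-3p. The other 6 summed to 39.9 to 41.4 CPM and 59.9 to 108.8 CPM, with miR-142-3p the highest, and their part in the results was not tested. In these bulk RNA samples, fewer cells of a type and less RNA per cell cannot be told apart.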

How the data were processed

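miRNA libraries from total RNA of HEK 293T cells, 3 of the TENT3A/B (TUT4/7) knockout strain and 3 of WT cells, were assigned to their strain from their labels, which call them biological replicates without saying whether cultures were separate, so that p-values measure the spread between these libraries. The authors cut each read to 18 nt, used Bowtie 1.0.0 for alignment to hg38 and quantified mature miRNAs of miRBase 22 in Partek 10.0.22. The deposited values are estimated counts from Partek's expectation-maximization model and are all whole numbers. Whether molecular identifiers were collapsed was not given in the sources used here, and intervals on counts cover counting error only. The authors' deposited table of p-values, fold changes and strain means was not used.

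Totals of 4338558 to 7967606 counts were the library sizes. Tests covered the 826 miRNAs that exceeded a count of 7 in some library, in edgeR 4.0.16 (estimateDisp, glmQLFit and glmQLFTest, R 4.3.3) with Benjamini-Hochberg adjustment over all of them. Standard errors were taken from the quasi-likelihood F. DESeq2 1.42.0, with its own size factors, and limma 3.58.1 (limma-trend on log2(CPM + 1)) were alternatives, besides TMM and RLE factors, let-7-free totals (without let-7 and miR-98), other filters, the replicate number as a block and each library left out. Ratios of 2 arms used counts with 0.5 added and 2-sided exact permutation tests. The calling was tested on simulated data with 200 changed miRNAs. Their changes were of 2 on the log2 scale and rare miRNAs were not among them. The simulation therefore does not bear on changes near the 2-fold limit or on arms with few counts. Hairpins were placed with GENCODE 44, sequences came from RefSeq, and folds were made with RNAfold 2.7.2. Named are the 8 arms, other arms encoded in the HOX clusters and the 2 nearest profiles of each arm. Arms, lists and tests were chosen with earlier results of these data known.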

Additional observations from a re-analysis of the deposited data

How the results depend on the processing

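With each of the 6 libraries left out, the log2 fold change was -7.73 to -7.14 for miR-196a-1-3p, -1.24 to -1.07 for miR-196a-5p, -1.03 to -0.70 for miR-10b-5p, -0.57 to -0.46 for miR-10b-3p, -0.249 to 0.084 for miR-10a-5p, -0.052 to 0.104 for miR-10a-3p, -0.031 to 0.315 for miR-196b-5p and -0.329 to 0.017 for miR-615-3p. Between 2 and 3 of the 8 arms were then called lower and 0 higher. Of all miRNAs tested in these fits, 11.3% to 13.1% were called lower and 13.8% to 16.6% higher. The log2 ratio of miR-10a-3p to miR-10a-5p differed by -0.16 to 0.35 and that of miR-10b-3p to miR-10b-5p by 0.13 to 0.51, and the log2 of the summed CPM of the HOXB arms by -0.229 to 0.087. With let-7-free totals 1 arm was called lower, miR-196a-1-3p, since miR-196a-5p was at -0.94, and the signs of miR-10a-5p (0.14), miR-615-3p (0.075) and the HOXB sum (0.17) turned, while the log2 difference of the sum of all 8 arms was -0.19 in place of -0.41. That of miR-10a-3p turned with RLE factors and with DESeq2 (-0.018 each). With let-7-free totals 69.3% of all calls were increases, in place of 54.8%. The causes were not tested. The other alternatives kept the direction and the call of each arm and ratio.

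Libraries with the same replicate number did not vary together: their deviations from the strain means over 391 miRNAs correlated at -0.17, -0.16 and -0.25. With the replicate number as a block, 131 miRNAs were called higher and 102 lower, against 136 and 112 without it, and the same 2 of the 8 arms were lower, with log2 fold changes of -7.32 and -1.16. Depth limits miR-196a-1-3p in ΔTUT4/7 cells, miR-196a-3p and miR-615-5p, whose counts were 1 to 10 in each library except for miR-196a-1-3p in WT.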
